A study of Mus musculus with 6 samples.

Results

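Inflammasomes are protein complexes that activate inflammatory caspases, and 10 genes of that machinery and of pyroptosis, the lytic cell death it can cause, are described here in mouse aorta. They are the sensors Nlrp3, Nlrp1b and Nlrc4, the receptors Naip2 and Naip5, the kinase Nek7, the adaptor Pycard, the caspases Casp1 and Casp4, and the pore protein gene Gsdmd. They were taken by gene symbol from a deposited table of 56748 genes. All 10 symbols were found, each on 1 row, and all 10 passed the low-count filter that 16377 genes passed. The study measured messenger RNA by bulk sequencing in whole aortas of mice aged 6 months that received angiotensin II from an osmotic minipump for 28 days. Per the design text, the sST2-KO group held 3 mice without soluble ST2 and the WT group 3 wild-type littermates. Both groups, the controls included, were labelled as Apoe -/-. There was no group without angiotensin II, and how the soluble isoform was removed is not given in the sources used here.

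As background, a sensor such as NLRP3 that meets its trigger recruits Pycard, also called ASC, which brings procaspase-1 together so that it cleaves itself. Caspase-1 then matures interleukin-1β and interleukin-18 and cuts gasdermin D, whose amino-terminal part forms pores in the plasma membrane. Caspase-11, the product of mouse Casp4, is activated by cytosolic lipopolysaccharide and cuts gasdermin D directly. In arteries these genes are known best from macrophages that take up cholesterol crystals, a trigger of NLRP3. Soluble ST2, encoded by Il1rl1, is a decoy receptor for the cytokine interleukin-33.

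The libraries held 15615658 to 17988552 counts. Levels are given as CPM, counts of a library scaled to 1000000 with TMM normalization, and 3 counts, the most that a count of 0 allows, stand for 0.148 to 0.239 CPM. Il1rl1 had 2.39, 2.82 and 4.86 CPM in sST2-KO replicates 1 to 3 and 2.81, 9.49 and 4.35 CPM in WT replicates 1 to 3, counts that join its soluble and membrane isoforms. Apoe had 172, 86.7 and 145 CPM in sST2-KO aortas and 15.1, 11.6 and 507 CPM in WT aortas. Apoe reads were thus present in all libraries of a line labelled Apoe -/-, lowest in WT replicates 1 and 2 and highest in WT replicate 3, the library with liver transcripts described below. Its log2 change was -0.40 with all libraries and 3.34 without WT replicate 3. What transcript the Apoe allele leaves is not given in the sources used here, so these counts do not check the label. Both groups carry the same label, yet every sST2-KO library lay above WT replicates 1 and 2. Whether the Apoe locus differs between the groups was not tested. Of the smooth muscle markers Acta2 averaged 4137 ± 2123 CPM in sST2-KO and 3178 ± 2030 CPM in WT (SD, n = 3 each), and Tagln, named after its values were seen, had at most 30.6 CPM. How the authors' counting treated reads that fall on overlapping genes is not given in the sources used here, and its part in this low level, or in the levels of other genes that overlap a neighbour, was not tested. The endothelial marker Pecam1 averaged 461 ± 194 CPM in sST2-KO and 341 ± 17.4 CPM in WT (SD, n = 3 each). The library of sST2-KO replicate 2 carried airway transcripts: the 10 airway markers summed to 37100 CPM there, led by Bpifa1, and to 16.1 to 65.1 CPM in the other libraries. The library of WT replicate 3 carried liver transcripts: 7 hepatocyte markers, led by Alb, summed to 9810 CPM there and to 7.95 to 14.2 CPM elsewhere. Mitochondrial genes took 7.08% to 23.7% of counts in sST2-KO libraries and 18.4% to 37.8% in WT libraries. Values without 1 of these or other libraries are given where they move a log2 change by over 1.5 times or turn its sign.

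No member passed the test of sST2-KO against WT. The edgeR quasi-likelihood test, with Benjamini-Hochberg adjustment over all 16377 tested genes and a threshold of 0.05, called 0 of the 10 members and 0.0% of all tested genes lower. Members' adjusted p-values ran from 0.442 to 0.924. At an unadjusted p under 0.05, 2 of 10 members were lower, Nlrp3 and Nlrp1b, against 5.95% of tested genes. DESeq2 called 0 members and 1.04% of its tested genes lower, while limma-voom weighting libraries by quality called 0 members and 0.214% of genes lower. Of the members 8 had negative log2 changes and 2 positive ones, and the median was -0.48, while 46.5% of all tested genes had negative ones and their median was 0.042. The 3 sST2-KO values lay below all 3 WT values for 4 members, Nlrp3, Nlrp1b, Nlrc4 and Naip2, against 10% of tested genes, and above them for 0 members, against 9.09%. The log2 changes ran from -1.53 for Nlrp3 to 0.10 for Nek7, with Gsdmd between them at 0.06. Differences between members in log2 change were not tested.

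**Figure D1:**
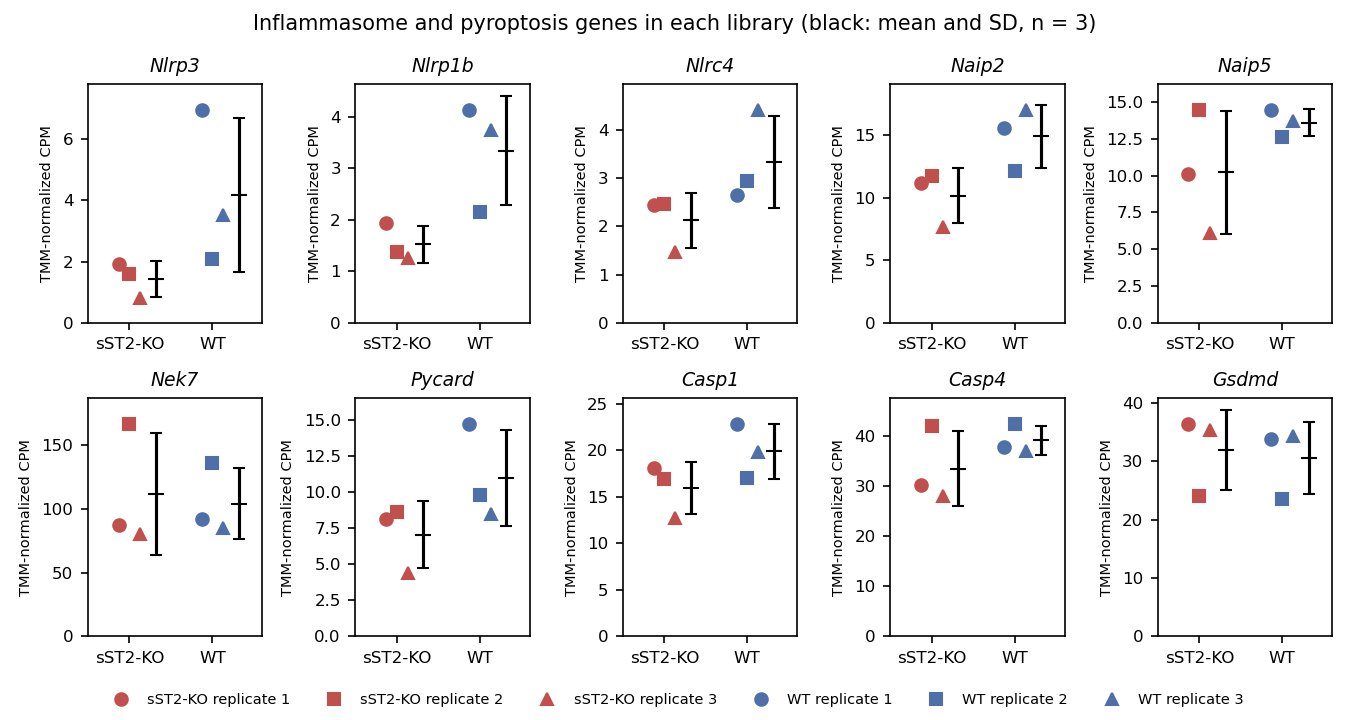
TMM-normalized CPM (vertical axes, from 0) of the 10 members in each library, with sST2-KO to the left of WT, one symbol per replicate number and the mean with its SD in black (n = 3 each). The groups do not overlap for Nlrp3, Nlrp1b, Nlrc4 and Naip2, and sST2-KO replicate 3 is the lowest library for 9 of 10 members.

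Nlrp3 (ENSMUSG00000032691, chromosome 11, 59432394 to 59457782, plus strand, mm39) encodes the sensor that responds to potassium loss, crystals and extracellular ATP. It was rare, with 1.93, 1.58 and 0.798 CPM in sST2-KO replicates 1 to 3 and 6.95, 2.07 and 3.52 CPM in WT replicates 1 to 3. Every sST2-KO library lay below every WT library, but sST2-KO replicate 1 and WT replicate 2 lay close together. Their counts were 34 and 26, and their exact Poisson 95% intervals, 1.34 to 2.70 CPM in sST2-KO replicate 1 and 1.35 to 3.04 CPM in WT replicate 2, cover counting error only and overlap. The group means were 1.44 ± 0.581 CPM in sST2-KO and 4.18 ± 2.504 CPM in WT (SD, n = 3 each), and the log2 change from edgeR was -1.53 (SE 0.58, adjusted p = 0.442). WT replicate 1 weighed most in it: without that library the log2 change was -0.95.

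Nlrp1b (ENSMUSG00000070390, chromosome 11, 71043928 to 71121559, minus strand, mm39) encodes the mouse sensor cleaved by anthrax lethal factor. Its levels were 1.93, 1.39 and 1.26 CPM in sST2-KO replicates 1 to 3 and 4.14, 2.15 and 3.76 CPM in WT replicates 1 to 3. WT replicate 2 was again the lowest WT library and the groups did not overlap. The log2 change was -1.13 (SE 0.42, edgeR adjusted p = 0.442), and it stayed between -1.39 and -0.95 whichever library was left out. Nlrp1b is one of several copies in mouse, and its counts run from 19 to 75 reads. Of the 100-base windows of its longest coding transcript in GENCODE vM21, 0.0743% also occur in Nlrp1a, so few reads of that length could not be told apart.

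Promoter windows of Nlrp3 and Nlrp1b are shown because these are the 2 lowest log2 changes of the set. RefSeq windows on build GRCm38.p6 run from 250 bases before to 50 after a transcript start and were found for 9 of the 10 members, 12 windows in all. Capitals mark GAGGAA or its reverse complement TTCCTC, letters of the core bound by the myeloid factor PU.1. The windows, 5′ to 3′ on the strand of the gene, are Nlrp3 at chr11:59541319-59541618 (plus strand), Nlrp3 at its later start chr11:59542436-59542735 (plus strand) and Nlrp1b at chr11:71230684-71230983 (minus strand).
Nlrp3 first start: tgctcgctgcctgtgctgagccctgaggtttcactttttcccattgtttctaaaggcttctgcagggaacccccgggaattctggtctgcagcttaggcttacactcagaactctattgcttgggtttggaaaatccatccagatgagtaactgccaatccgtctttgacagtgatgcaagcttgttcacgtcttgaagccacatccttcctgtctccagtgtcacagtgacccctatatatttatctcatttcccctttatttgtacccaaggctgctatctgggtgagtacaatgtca
Nlrp3 later start: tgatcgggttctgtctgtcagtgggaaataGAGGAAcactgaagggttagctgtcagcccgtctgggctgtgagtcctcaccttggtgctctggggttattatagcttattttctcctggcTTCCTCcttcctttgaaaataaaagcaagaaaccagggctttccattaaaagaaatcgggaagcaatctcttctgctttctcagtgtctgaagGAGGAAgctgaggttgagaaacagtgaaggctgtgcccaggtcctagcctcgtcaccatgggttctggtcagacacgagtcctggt
Nlrp1b: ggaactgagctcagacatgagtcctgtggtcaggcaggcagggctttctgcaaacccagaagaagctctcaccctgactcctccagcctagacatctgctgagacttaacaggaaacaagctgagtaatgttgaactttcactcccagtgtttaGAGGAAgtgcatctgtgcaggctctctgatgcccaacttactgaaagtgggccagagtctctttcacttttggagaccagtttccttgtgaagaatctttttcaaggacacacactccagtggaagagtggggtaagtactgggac
The later Nlrp3 window held 3 matches and the first one 0. Nlrp1b has 2 windows, of which the first is shown and held 1 match, and the other held none. Over all members 4 of 12 windows had a match, against 28.3% of the 32851 windows of the table. They belong to 4 of the 9 genes, Pycard, Casp1, Nlrp3 and Nlrp1b. NF-kB letters, searched on both strands by the usual degenerate motif, occurred in 4 of 12 member windows, from Casp4, Nlrp3 and Naip5, and in 8.46% of all windows. TGACTCA for AP-1 was found in 0 member windows and 5.20% of all, TTCNNNGAA, the gamma-activated site, in 0 and 8.30%, and the interferon response element core, searched by its usual letters, in 0 and 3.44%, each on both strands. A match is a description of letters and does not show a bound site.

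Nlrc4 (ENSMUSG00000039193, chromosome 17, 74732433 to 74766137, minus strand, mm39) encodes the sensor that assembles on NAIP receptors bound to flagellin or to secretion system proteins. Nlrc4 levels were 2.44, 2.47 and 1.46 CPM in sST2-KO replicates 1 to 3 and 2.65, 2.95 and 4.41 CPM in WT replicates 1 to 3. The groups did not overlap, but 4 of the 6 libraries lay between 2.44 and 2.95 CPM. The log2 change was -0.65 (SE 0.41, edgeR adjusted p = 0.550), and it was -0.39 without WT replicate 3. A processed pseudogene, Gm4708, shares 355 bases of its span on the same strand and had 19 counts in all, against 274 for Nlrc4. Of the other members, 3 overlap annotated rows with few counts: Naip2 the pseudogene Gm18413 (0 counts), Nek7 the rows Gm37101, Gm28501 and Gm37080 (18, 1 and 0 counts, against 10901 for Nek7), and Pycard the opposite-strand row Gm45205 (9 counts, against 917 for Pycard).

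Naip2 and Naip5 encode the cytosolic receptors upstream of Nlrc4; in mouse Naip5 binds flagellin and Naip2 binds rod proteins of bacterial secretion systems. They are neighbours on chromosome 13, minus strand, Naip2 (ENSMUSG00000078945) at 100280571 to 100338600 and Naip5 (ENSMUSG00000071203) at 100348247 to 100382831 (mm39), with 9646 bases between them. Their RefSeq promoter windows are shown because they are partly the same, and capitals mark runs of at least 12 bases found in both, 99 of 300 bases, the longest of 34. Naip2 is at chr13:100202073-100202372 and Naip5 at chr13:100247287-100247586 (GRCm38.p6, both minus strand).
Naip2: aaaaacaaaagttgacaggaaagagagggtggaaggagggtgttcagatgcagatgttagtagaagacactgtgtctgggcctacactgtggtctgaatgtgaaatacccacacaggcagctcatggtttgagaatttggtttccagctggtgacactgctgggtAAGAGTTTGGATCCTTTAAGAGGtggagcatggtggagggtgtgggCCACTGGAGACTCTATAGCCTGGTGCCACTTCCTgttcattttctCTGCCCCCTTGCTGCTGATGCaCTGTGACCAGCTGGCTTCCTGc
Naip5: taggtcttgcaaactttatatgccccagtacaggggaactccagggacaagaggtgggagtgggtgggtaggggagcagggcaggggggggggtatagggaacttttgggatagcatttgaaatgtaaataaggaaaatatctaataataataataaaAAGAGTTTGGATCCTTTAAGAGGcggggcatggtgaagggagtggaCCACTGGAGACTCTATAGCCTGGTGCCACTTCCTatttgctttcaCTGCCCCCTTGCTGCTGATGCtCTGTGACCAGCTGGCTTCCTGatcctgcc
Transcripts of gene copies can share reads. Of 100-base windows of the longest coding transcript, 4.55% of Naip2 also occur in transcripts of other genes, namely Naip1, Naip3 and Naip5, the last with 1.42%. For Naip5 the share was 16.2%, chiefly with Naip3, Naip6 and Naip1. Counts of both receptors are uncertain for this reason, and by how much was not tested. Naip2 had 11.1, 11.7 and 7.65 CPM in sST2-KO replicates 1 to 3 and 15.5, 12.1 and 17.0 CPM in WT replicates 1 to 3, without overlap. Its log2 change was -0.55 (SE 0.27, edgeR adjusted p = 0.484). Naip5 had 10.1, 14.4 and 6.12 CPM in sST2-KO replicates 1 to 3 and 14.4, 12.6 and 13.7 CPM in WT replicates 1 to 3. The library with airway transcripts, sST2-KO replicate 2, was as high for Naip5 as the highest WT library, so the groups overlapped. The log2 change of Naip5 was -0.41 (SE 0.34, edgeR adjusted p = 0.627) with all libraries, -0.74 without sST2-KO replicate 2 and -0.15 without sST2-KO replicate 3.

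Nek7 (ENSMUSG00000026393, chromosome 1, 138410613 to 138547879, minus strand, mm39), a mitotic kinase that also binds NLRP3 and licenses its assembly, was the most abundant member. Libraries showed 87.2, 167 and 80.6 CPM in sST2-KO replicates 1 to 3 and 92.0, 136 and 84.6 CPM in WT replicates 1 to 3. The high libraries were sST2-KO replicate 2 and WT replicate 2, and the other 4 lay between 80.6 and 92.0 CPM. The log2 change was 0.10 (SE 0.33, edgeR adjusted p = 0.913), and it was -0.31 without the library with airway transcripts. The part of those transcripts in the Nek7 level was not tested.

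Pycard (ENSMUSG00000030793, chromosome 7, 127588880 to 127593039, minus strand, mm39), the adaptor that NLRP3 recruits, had 8.18, 8.61 and 4.39 CPM in sST2-KO replicates 1 to 3. In WT replicates 1 to 3 the values were 14.8, 9.81 and 8.47 CPM. The groups overlapped, since WT replicate 3 lay just below sST2-KO replicate 2, and WT replicate 1 stood above all others. The log2 change was -0.64 (SE 0.37, edgeR adjusted p = 0.524) with all libraries, -0.36 without WT replicate 1 and -0.39 without sST2-KO replicate 3.

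Casp1 (ENSMUSG00000025888, 5298508 to 5307290) and Casp4 (ENSMUSG00000033538, 5308828 to 5336783) lie head to tail on the plus strand of chromosome 9 (mm39), with 1537 bases between them. Casp1 had 18.1, 17.0 and 12.8 CPM in sST2-KO replicates 1 to 3 and 22.9, 17.0 and 19.9 CPM in WT replicates 1 to 3. Its group means were 15.96 ± 2.82 CPM in sST2-KO and 19.9 ± 2.95 CPM in WT (SD, n = 3 each), which edgeR put at -0.32 on the log2 scale (SE 0.23, adjusted p = 0.577). It was -0.18 without sST2-KO replicate 3 and -0.20 without WT replicate 1. Casp4 had 30.3, 42.1 and 28.1 CPM in sST2-KO replicates 1 to 3 and 37.9, 42.6 and 37.2 CPM in WT replicates 1 to 3. For both caspases the groups overlapped, through WT replicate 2 for Casp1 and through sST2-KO replicate 2 for Casp4. The log2 change of Casp4 was -0.23 (SE 0.20, edgeR adjusted p = 0.644), and it was -0.42 without sST2-KO replicate 2 and -0.12 without sST2-KO replicate 3. No 100-base window of either caspase transcript occurred in another gene, so transcript reads of that length could be told apart by sequence. How the counting treated reads that run between these neighbours was not tested.

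Gsdmd (ENSMUSG00000022575, chromosome 15, 75734176 to 75739257, plus strand, mm39), whose product forms the pore, had 36.4, 24.0 and 35.3 CPM in sST2-KO replicates 1 to 3 and 33.9, 23.4 and 34.2 CPM in WT replicates 1 to 3. The replicates of 1 group differed more than the groups did: in each group replicate 2 was the low library and replicates 1 and 3 lay close together. Means were 31.9 ± 6.83 CPM in sST2-KO and 30.5 ± 6.12 CPM in WT (SD, n = 3 each). The log2 change was 0.06 (SE 0.24, edgeR adjusted p = 0.924) and changed sign with the library left out, from -0.11 to 0.23.

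**Figure D2:**
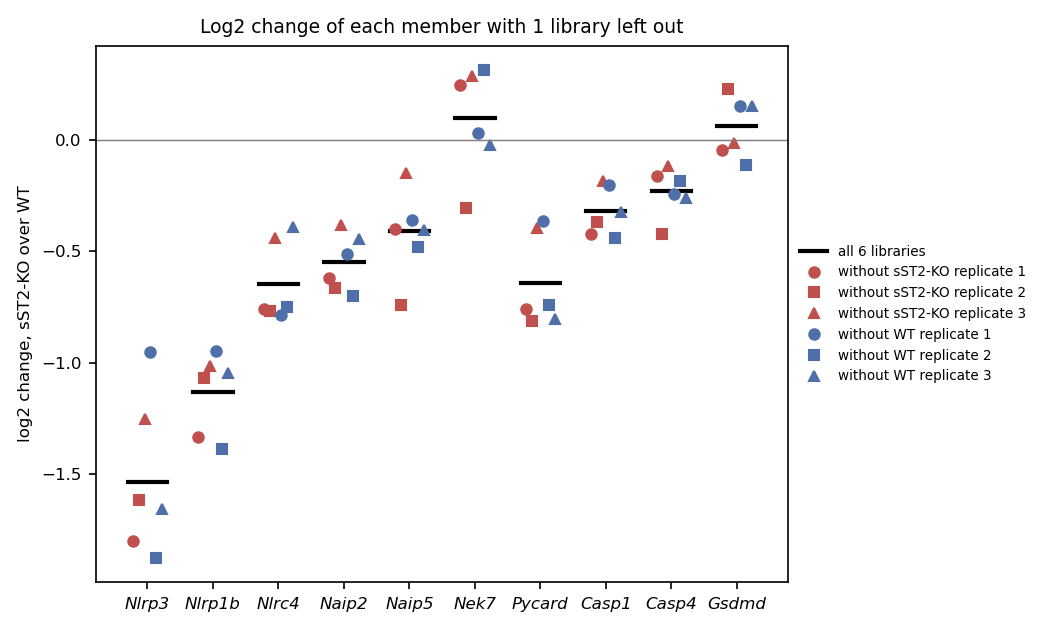
Log2 change of each member, sST2-KO over WT (vertical axis), with all 6 libraries (black bar) and with 1 library left out in turn (symbols). The log2 changes of the 8 members from Nlrp3 to Casp4 other than Nek7 stay below 0 in each case, and those of Nek7 and Gsdmd lie on both sides of 0.

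Per deposited gene length, Nek7, Gsdmd, Casp4 and Casp1 were the plentiful members and the receptors, Pycard and the sensors the scarce ones, in both groups. Levels divided by the deposited gene length averaged, in sST2-KO aortas, 15.1 ± 6.5 CPM per kb for Nek7, 13.4 ± 2.87 for Gsdmd, 9.03 ± 2.02 for Casp4 and 5.09 ± 0.898 for Casp1 (SD, n = 3). Naip2, Naip5 and Pycard followed with 2.10 ± 0.455, 1.97 ± 0.801 and 1.86 ± 0.611 CPM per kb, and Nlrc4, Nlrp3 and Nlrp1b came last with 0.442 ± 0.119, 0.354 ± 0.143 and 0.242 ± 0.0565 CPM per kb (SD, n = 3). The sST2-KO ranges of neighbours overlapped in this order except at the steps below Casp4, Casp1 and Pycard. In WT aortas the order was Nek7, Gsdmd, Casp4, Casp1, Naip2, Pycard, Naip5, Nlrp3, Nlrc4 and Nlrp1b, and the steps without overlap lay below Casp4, Casp1 and Naip5. Nlrp3 stood at 1.03 ± 0.617 CPM per kb in WT (SD, n = 3). The deposited lengths of Casp1 and Casp4 are 3136 and 3710 bases, while their longest coding transcripts in GENCODE vM21 have 1497 and 1435. On that length Casp4 ranks 1 in both groups, with 23.3 CPM per kb in sST2-KO and 27.3 in WT. For Pycard both lengths are 3800 bases, so this change of length cannot show how its place depends on the length used. Its level per kb of a shorter transcript was not computed.

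sST2-KO replicate 3 was the lowest of the 6 libraries for 9 of 10 members, all but Gsdmd, and WT replicate 1 the highest for 4, Nlrp3, Nlrp1b, Pycard and Casp1. With each gene centred on its mean log2 CPM, the median of the 10 members was -0.15, -0.05 and -0.71 in sST2-KO replicates 1 to 3 and 0.34, 0.07 and 0.21 in WT replicates 1 to 3. Without sST2-KO replicate 3 the median log2 change of the members was -0.28, without the airway library it was -0.70, and without both sST2-KO replicate 2 and WT replicate 3 it was -0.54. In each of these cases 0 members were called.

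Macrophage marker values lay in the same direction as those of most members. Of 19 macrophage and monocyte markers 18 had negative log2 changes, 10 had sST2-KO values below all WT values, against 10% of all tested genes, and the median log2 change was -0.95. edgeR called 0 of the markers and DESeq2 called 4 lower, against 1.04% of its tested genes. Their summed level was 2530 to 4190 CPM in sST2-KO and 3630 to 4370 CPM in WT, and none was at 0 in any library. Lyz2, the most abundant marker, which alveolar epithelial cells also express, had 2192 ± 898 CPM in sST2-KO and 1925 ± 105 CPM in WT (SD, n = 3 each). It made up 54.2% to 75.1% of that sum in sST2-KO, highest in the airway library, and 46.3% to 50.8% in WT. The log2 change of Lyz2 was 0.19 with all libraries, -0.17 without the airway library and 0.43 without sST2-KO replicate 3. Without Lyz2 the sum was 1040 to 1540 CPM in sST2-KO and 1780 to 2330 CPM in WT, without overlap. The next most abundant markers were the complement genes C1qb, with 222 ± 60.9 CPM in sST2-KO and 346 ± 61.3 CPM in WT, C1qa, with 206 ± 32.9 CPM in sST2-KO and 301 ± 99.3 CPM in WT, and C1qc, with 198 ± 39.9 CPM in sST2-KO and 271 ± 66.9 CPM in WT (SD, n = 3 each). In bulk tissue fewer cells of a type and less RNA per cell cannot be told apart.

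Per 1000 CPM of the macrophage marker sum in the same library, Nlrp3 had 0.538, 0.377 and 0.315 CPM in sST2-KO replicates 1 to 3 and 1.59, 0.572 and 0.863 CPM in WT replicates 1 to 3. Nlrp3, Nlrp1b and Naip2 did not overlap between groups on this scale, with log2 differences of -1.21, -0.85 and -0.31 (exact permutation test over libraries, two-sided, p = 0.1 for each, the smallest that 3 against 3 allows, and 0.333 adjusted over the 10 members). The share of all tested genes without overlap on ratios to the markers was not computed, so these members have no background to be set against. Casp1 and Casp4 differed by -0.072 and 0.005 (exact permutation p = 0.7 and 1.0). The direction depended on Lyz2: with the full sum 7 of 10 members were lower in sST2-KO, and without Lyz2 only Nlrp3 and Nlrp1b were, by -0.70 and -0.34, now with overlap (exact permutation p = 0.4 and 0.3). Without Lyz2, Casp1 and Gsdmd were higher relative to the markers in all 3 sST2-KO libraries than in any WT library, by 0.44 and 0.82 (exact permutation p = 0.1 for each, 0.5 adjusted). That sum was itself lower in all 3 sST2-KO libraries than in any WT library. A gene of like CPM in both groups, such as Gsdmd (log2 change 0.06), therefore comes out higher in sST2-KO on this scale.

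**Figure D3:**
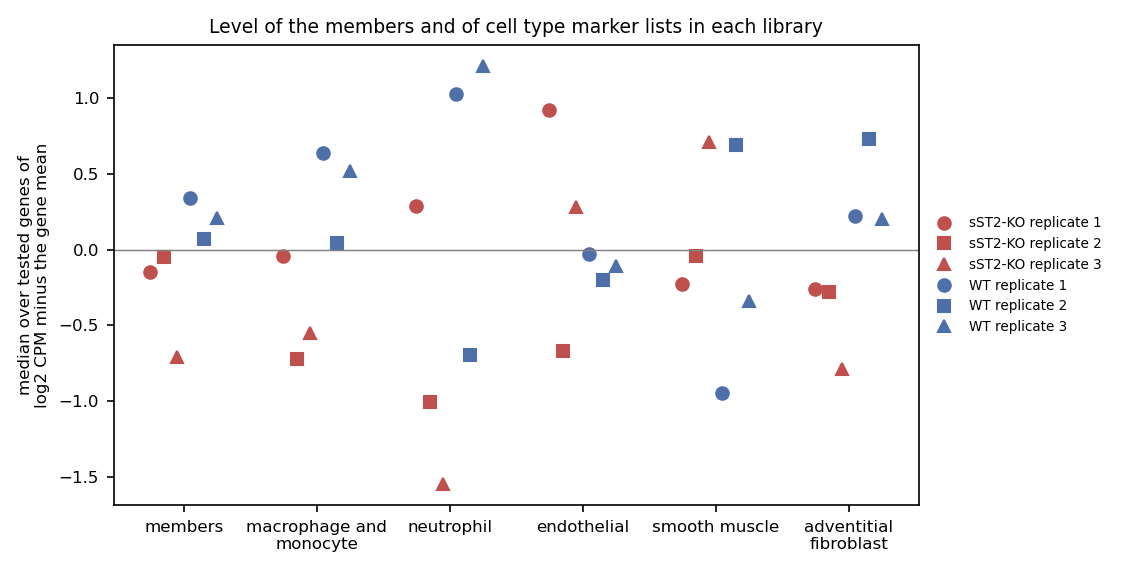
Median level of the tested genes of each list, as log2 CPM centred on each gene's mean (vertical axis), per library, for the 10 members and 5 marker lists, with sST2-KO symbols to the left of WT symbols. The members span -0.71 to 0.34 and the macrophage list -0.72 to 0.64, with all 3 sST2-KO libraries below the WT libraries in both.

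Markers of other cell types were read in the same libraries. Of 8 tested neutrophil markers 7 had negative log2 changes, and the list of 13 summed to 34.3 to 2160 CPM in sST2-KO and 107 to 338 CPM in WT. The highest sum belonged to the airway library, where Ltf alone had 2074 CPM, and Ly6g was at 0 in all 3 sST2-KO libraries. Ly6g had 2, 4 and 4 counts in WT replicates 1 to 3, near what a count of 0 allows, so no difference was detectable at this depth. T cell markers, led by Cd4, summed to 7.13 to 37.0 CPM in sST2-KO and 15.6 to 25.5 CPM in WT, and B cell markers, led by Cd79b, to 6.88 to 16.6 CPM in sST2-KO and 12.8 to 19.8 CPM in WT. Adventitial fibroblast markers, led by Dcn, summed to 2390 to 3420 CPM in sST2-KO and 5070 to 7030 CPM in WT without overlap. Smooth muscle markers ranged from 4610 to 9990 CPM in sST2-KO and from 2770 to 8810 CPM in WT, and adipocyte markers, led by Cfd, from 478 to 4740 CPM in sST2-KO and from 527 to 2860 CPM in WT. The part of these cell types in the members' values was not tested.

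The other genes of the pathway were counted on 6 lists. Over all of them 46 of 55 tested genes had negative log2 changes and 9 positive ones. Their median was -0.48 and edgeR called 0. sST2-KO values lay below all WT values for 16 of the 55 and above them for 2, Rela and Atg16l1, at 0.36 and 0.22, against 10% and 9.09% of all tested genes. Without sST2-KO replicate 3 the log2 change of Atg16l1 was 0.11. DESeq2 called Il1rn and Trim30a lower, against 1.04% of its tested genes, and so did limma-voom when libraries were weighted by quality.

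Among other sensors and NAIP copies all 8 tested genes lay below 0 (median log2 change -0.82). Mefv, the gene of pyrin, had 4.94, 2.03 and 2.53 CPM in sST2-KO replicates 1 to 3 and 8.55, 5.58 and 7.39 CPM in WT replicates 1 to 3, without overlap (-1.18 on the log2 scale, SE 0.43, edgeR adjusted p = 0.440). Its partner gene Pstpip1 was at -0.77 (SE 0.28) with groups that overlapped. Aim2, the sensor of cytosolic DNA, had 8.98, 2.97 and 3.99 CPM in sST2-KO replicates 1 to 3 and 8.71, 12.1 and 8.29 CPM in WT replicates 1 to 3. Only sST2-KO replicate 1 reached the WT range for Aim2, and its log2 change was -0.87 (SE 0.46, edgeR adjusted p = 0.504). It was -1.48 without sST2-KO replicate 1 and -0.57 without the airway library. Nlrp12 was at -2.58 (SE 1.28) with all libraries, -3.90 without sST2-KO replicate 1 and -0.85 without WT replicate 3, the library with liver transcripts.

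Of 15 genes that prime or trigger inflammasomes 12 were below 0, and the median log2 change was -0.12. For 5 of the 15 genes the sST2-KO values lay below all WT values, against 10% of all tested genes. For 1, Rela, they lay above them, against 9.09%. The 5 were Irgm1 and Syk, with log2 changes of -0.665 and -0.81, and the genes of 3 guanylate-binding proteins, which open bacteria to caspase-11. Gbp2 had 44.7 ± 6.28 CPM in sST2-KO and 83.3 ± 16.1 CPM in WT, Gbp3 had 28.7 ± 3.97 CPM in sST2-KO and 60.7 ± 18.4 CPM in WT, and Gbp5 had 12.7 ± 1.63 CPM in sST2-KO and 28.6 ± 10.9 CPM in WT (SD, n = 3 each). The log2 changes of Gbp2, Gbp3 and Gbp5 were -0.90, -1.08 and -1.17, with edgeR adjusted p-values of 0.348, 0.368 and 0.402. The ATP-gated channel P2rx7, the channel Panx1 and the NLRP3 binding protein Txnip were at -0.11, -0.12 and 0.18. With 1 library left out P2rx7 ran from -0.49 to 0.16, Panx1 from -0.26 to 0.02 and Txnip from 0.03 to 0.33.

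In the cytokine list 8 of 9 genes lay below 0, and the median log2 change was -0.83. Il1rn, the interleukin-1 receptor antagonist, had 10.2, 6.98 and 6.52 CPM in sST2-KO replicates 1 to 3 and 38.0, 24.6 and 31.8 CPM in WT replicates 1 to 3. At -1.99 on the log2 scale (SE 0.27) it did not pass in edgeR (adjusted p = 0.264), but passed in DESeq2 (adjusted p = 3.84e-06) and in quality-weighted limma-voom (adjusted p = 0.0425). Il1b had 8.01, 2.52 and 2.26 CPM in sST2-KO replicates 1 to 3 and 16.2, 10.5 and 11.99 CPM in WT replicates 1 to 3, also without overlap (log2 change -1.59, SE 0.54, edgeR adjusted p = 0.433; -2.43 without sST2-KO replicate 1). The receptor gene Il1r1 had 53.7 ± 5.87 CPM in sST2-KO and 95.3 ± 18.1 CPM in WT (SD, n = 3 each; log2 change -0.83). Il18, the other substrate of caspase-1, was at 4.89, 5.15 and 2.73 CPM in sST2-KO replicates 1 to 3 and 7.61, 4.62 and 5.37 CPM in WT replicates 1 to 3, and its groups overlapped (log2 change -0.46, SE 0.38). Without sST2-KO replicate 3, or without WT replicate 1, Il18 was at -0.23.

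Genes of other pores and of membrane rupture showed small values like those of Gsdmd: 5 of 8 tested genes were negative, with a median of -0.12. Gsdme, cut by caspase-3, ranged from 11.5 to 27.3 CPM in sST2-KO and from 21.3 to 28.9 CPM in WT, and its log2 change, -0.23 with all libraries, was 0.06 without sST2-KO replicate 1 and -0.48 without the airway library. Casp12, an inflammatory caspase of mouse, had 51.0 ± 6.95 CPM in sST2-KO and 76.7 ± 18.3 CPM in WT without overlap (SD, n = 3 each; log2 change -0.59, edgeR adjusted p = 0.437), while Vps4a and Casp8 were at 0.28 and -0.27 with overlap. Vps4a was at 0.17 without sST2-KO replicate 3 and Casp8 at -0.42 without sST2-KO replicate 1 and -0.18 without sST2-KO replicate 3. Of 9 tested negative regulators 8 lay below 0, and the median log2 change was -0.46. Trim30a, which restrains NLRP3 in mouse macrophages, had 26.6 ± 5.30 CPM in sST2-KO and 61.3 ± 9.89 CPM in WT (SD, n = 3 each). This was -1.20 on the log2 scale, with adjusted p = 0.330 in edgeR, 0.00412 in DESeq2 and 0.0458 in quality-weighted limma-voom. Nlrc3 and Tnfaip3 were at -1.09 and -0.46 without overlap, and Tnfaip3 was at -0.30 without WT replicate 1. In the necroptosis list, the lytic death that does not use gasdermin D, 5 of 6 genes were negative and 0 separated the groups; Zbp1, Ripk3 and Mlkl were at -1.53 (SE 0.64), -0.60 (SE 0.36) and -0.50 (SE 0.34), with edgeR adjusted p-values of 0.452, 0.533 and 0.569. Without the airway library they were at -2.25, -0.34 and -0.30. Mlkl was at -0.85 without sST2-KO replicate 1 and -0.28 without WT replicate 1.

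**Figure D4:**
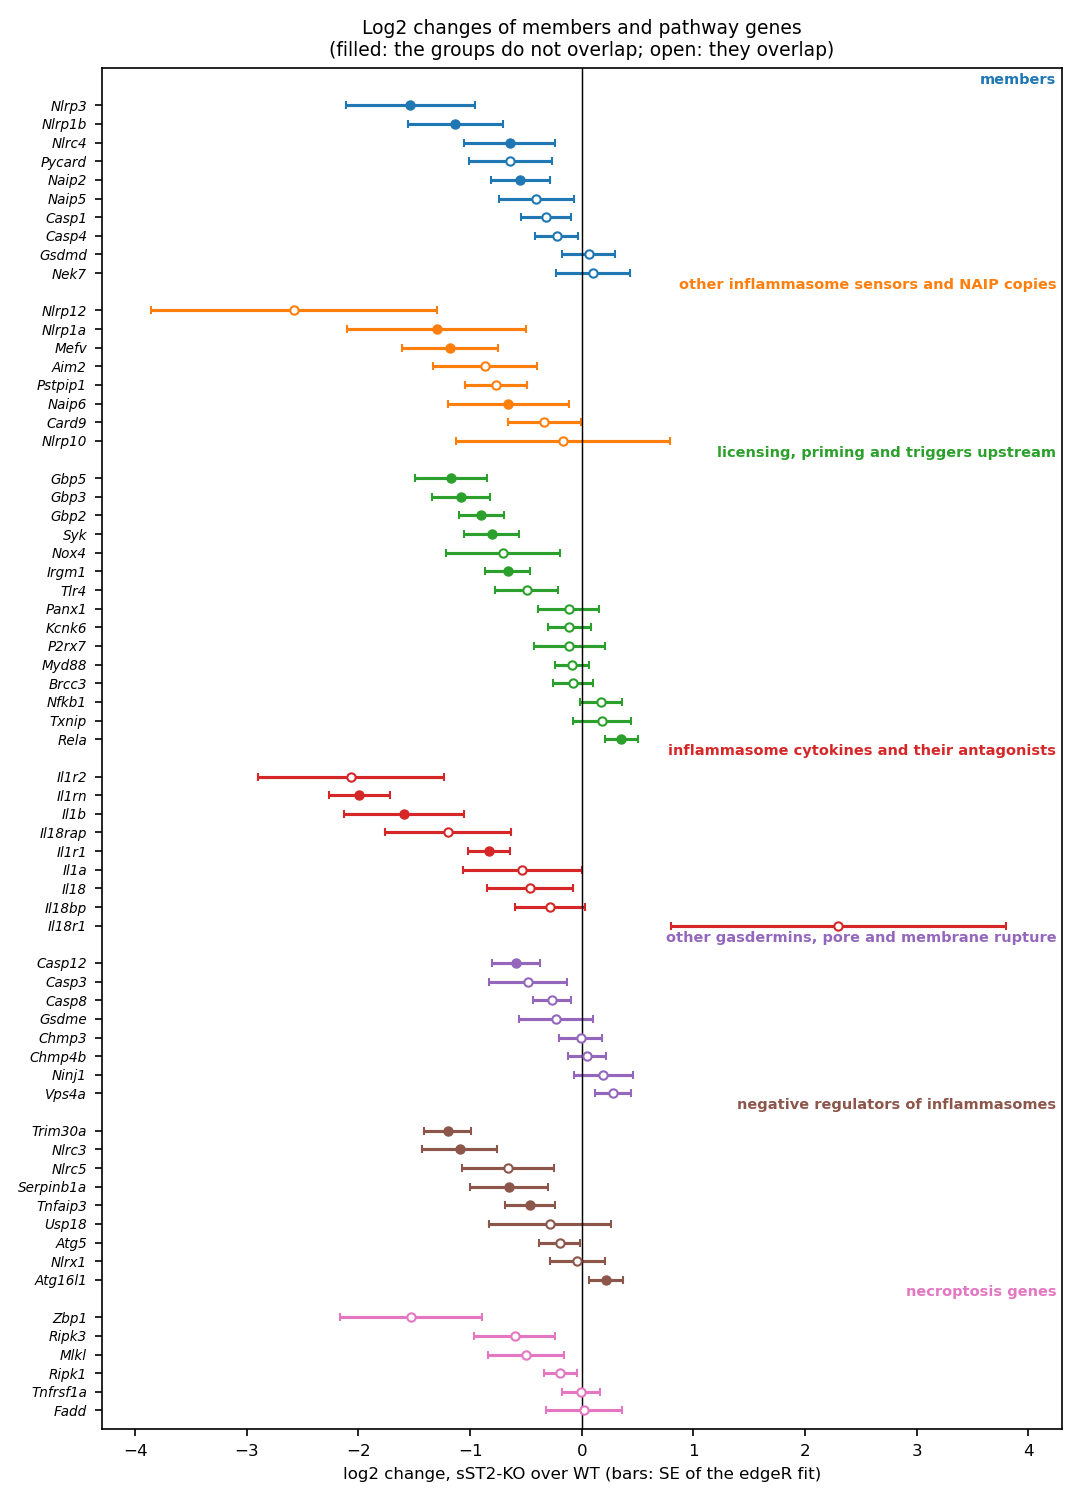
Log2 change, sST2-KO over WT, with its SE from the edgeR fit (horizontal axis) for the 10 members and 55 tested pathway genes, grouped by list. Filled symbols mark genes whose groups do not overlap; sensors, guanylate-binding proteins and Il1rn lie to the left of 0 and Gsdmd, Nek7 and the rupture genes near it.

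The genes whose levels followed a member most closely were found by the root mean square difference of centred log2 CPM over the 6 libraries, among tested protein-coding genes. Nearest to Nlrp3 were Rnase6, Ifit1bl2 and Nxpe5, at 0.216, 0.222 and 0.230, and the nearest other member was Nlrp1b, at 0.392. Rnase6, a secreted ribonuclease, had 2.04, 1.93 and 0.599 CPM in sST2-KO replicates 1 to 3 and 6.06, 2.39 and 3.64 CPM in WT replicates 1 to 3. Nearest to Casp1 were Rasa3, Il10rb and Fzd5, at 0.076, 0.081 and 0.082, and the nearest member was Naip2, at 0.166. Rasa3 had 73.4 ± 13.9 CPM in sST2-KO and 99.2 ± 10.6 CPM in WT (SD, n = 3 each). Genes with small differences between libraries lie close to many others on this measure, and the likeness is over 6 libraries that share a group.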

How the data were processed

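Libraries were made from TRI Reagent extracts by poly-T bead capture, fragmentation and random-hexamer priming, per the labels' protocols. The file that the authors deposited holds whole-number counts per gene, without normalization, for all 6 libraries, with Ensembl IDs, symbols, coordinates and gene lengths. The submitters' processing notes name mm39 as the genome build. Aligner, counting program, strand setting and annotation version: not given in the sources used here.

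Samples were grouped by title. edgeR 4.0.16 (R 4.3.3) fitted all 6 libraries: filterByExpr (minimum count 10, minimum total 15), TMM, glmQLFit and glmQLFTest, with Benjamini-Hochberg adjustment over 16377 genes at a threshold of 0.05. A log2 change above 0 means a higher level in sST2-KO, and its SE is its size over the square root of F. Centred log2 CPM used a prior count of 2. All pairs of libraries differed by more than sampling noise, so each counted as 1 replicate. The design text gives 3 mice a group but no label says that each library is 1 mouse, so p-values measure the spread between these libraries.

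Members and lists were chosen with earlier results of these data known. Named by rule are all members, the 3 genes of lowest p in each pathway list, Aim2, Il1b, Il18, Gsdme, the 4 most abundant macrophage markers, the most abundant gene of each other marker list, and the 3 genes nearest to Nlrp3 and to Casp1. P2rx7, Panx1, Txnip, Irgm1, Syk, Rela, Atg16l1, Tagln and the genes of the closing section were chosen after their values were seen.

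Scripts were tested on simulated data. The alternatives comprised RLE or upper-quartile scaling, DESeq2 1.42.0, voom from limma 3.58.1 (plain or quality-weighted), no low-count filter, a stricter one (1 CPM in 3 libraries), tests on protein-coding genes alone or after dropping mitochondrial genes, a threshold of 0.1, a replicate block, and leaving out libraries. Permutation tests used scipy 1.17.1, plots matplotlib 3.10.9. Promoters come from RefSeq and transcripts from GENCODE vM21, both on GRCm38, and no coordinate was moved between builds.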

Additional observations from a re-analysis of the deposited data

How the results depend on the processing

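The 10 members were called 0 times under each of the 17 alternative fits, and their median log2 change lay between -0.70 and -0.28 in all of them. With at most 3 libraries a group, 0 calls do not show that levels were equal. Of 170 member log2 changes under these fits 164 kept their sign. The exceptions were Gsdmd, whose values with 1 library left out ran from -0.11 to 0.23, and Nek7, from -0.31 to 0.32, which was -0.44 without WT replicate 3 and sST2-KO replicate 2 together. Gsdme ran from -0.48 to 0.06. Genes called over the whole table were 0 higher and 0 lower in edgeR, 55 and 164 in DESeq2, 8 and 35 in limma-voom with sample quality weights, and 0 and 0 to 1 with 1 library left out. The cause of these differences was not tested. Il1rn and Trim30a passed in DESeq2 (log2 change -1.99 and -1.20) and in limma-voom with quality weights (-1.94 and -1.16).

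Relative to macrophage markers, directions turned with the denominator, and the sum without Lyz2 was itself lower in sST2-KO than in WT. Without Lyz2 in the sum the log2 differences were 0.107 for Nlrc4, 0.20 for Naip2, 0.267 for Naip5, 0.098 for Pycard and 0.436 for Casp1. With the mean log2 level of the markers they were 0.245, 0.338, 0.405, 0.236 and 0.574 for these genes. Without WT replicate 3 and sST2-KO replicate 2 together, Nek7, Casp1 and Casp4 stood at -0.014, 0.026 and -0.061 relative to the full sum. In that setting 8 of 10 members were lower in sST2-KO and 2 higher, against 7 and 3 with all libraries.

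The labels do not say whether replicate numbers pair the libraries. Deviations from group means correlated at 0.145, 0.046 and -0.087 for numbers 1 to 3, and at -0.119 to 0.045 for unlike numbers. With 3 libraries a group these values cannot decide whether the numbers mark pairs. The replicate block gave 0 calls and a median of -0.52 for the members. Depth limits Nlrp3, Nlrp1b and Nlrc4 most, at 12 to 126 counts a library.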

Other observations

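Some pathway and marker genes were high in single libraries. Nlrp6, a sensor known from gut and liver, had 0.0568, 0 and 0.333 CPM in sST2-KO replicates 1 to 3 and 0.386, 0.0797 and 15.03 CPM in WT replicates 1 to 3, so it was high in the library with liver transcripts. Nlrp12, known from myeloid cells, had 4.05 CPM in that library and at most 0.625 CPM in the others. The myeloid granule genes Mpo and Elane had 11.0 and 4.53 CPM there, against at most 0.568 and 0.852 CPM elsewhere. Il18r1, the receptor of interleukin-18, had 1.82, 69.3 and 1.66 CPM in sST2-KO replicates 1 to 3 and 9.04, 1.04 and 4.65 CPM in WT replicates 1 to 3, with its highest value in the library with airway transcripts. Nlrp9b had at most 0.099 CPM, Gsdmc at most 0.0596 CPM, and Gsdma and Trim31 had no count in any library, which allows 0.148 to 0.239 CPM. The share of other tissues in these values was not tested.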
